A study of Mus musculus with 9 samples.

Results

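The UDP-glucuronosyltransferase (Ugt) and sulfotransferase (Sult) genes were examined in livers of wild-type mice that differed in diet. Members were all genes of the deposited count tables whose symbols begin with Ugt or Sult followed by a family number and a subfamily letter, pseudogene names left out. This gave 39 of 23337 genes, 21 of them Ugt and 18 Sult. Reads were present for 32 of the 39, and 21 passed the filter on low counts and were tested. The ND group received a normal diet. The HFD group received a 60% high-fat diet, and the HFD_HDCA group received the same 60% high-fat diet with 0.25% hyodeoxycholic acid (HDCA), a secondary bile acid. Each group had 3 livers from wild-type (WT) mice that started their diet at 8 weeks of age, stayed on it for 12 weeks and were dissected in the fed state. The labels give no strain, sex, cage or litter, so the p-values rest on the spread between these 9 samples, which may in part be technical.

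Both families make lipophilic molecules more soluble so that they can leave the body in bile or urine. Ugt enzymes sit in the membrane of the endoplasmic reticulum and transfer a sugar, usually glucuronic acid from UDP-glucuronic acid, to bilirubin, steroids, bile acids and drugs. Sult enzymes are mostly cytosolic and transfer sulfate from the donor PAPS to phenols, amines, steroids and bile acids. HDCA itself is a known substrate for glucuronidation by human UGT2B enzymes. The liver is the main site of both reactions, and the genes lie in tandem arrays in which some copies are nearly identical, which bears on how sequencing reads can be assigned to them.

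The Ugt1a genes are shown first because their messages share most of their length. Each Ugt1a message starts with exon sequence of its own, which encodes the part that binds the substrate, and continues into common exons, of which the first lies at chr1:88215044-88215175 (GRCm38, plus strand). The last 30 bases of each message's own exon are in lower case below and the first 30 bases of the common exon in capitals, 5′ to 3′.
Ugt1a1: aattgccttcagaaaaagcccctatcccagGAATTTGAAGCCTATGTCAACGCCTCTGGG
Ugt1a6a: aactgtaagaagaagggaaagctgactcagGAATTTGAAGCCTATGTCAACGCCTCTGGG
Ugt1a9: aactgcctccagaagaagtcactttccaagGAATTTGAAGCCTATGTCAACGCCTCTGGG
All 8 Ugt1a members continued into the same 30 bases. The own part of the message made up 41.1% of the Ugt1a1 transcript, 42.9% of that of Ugt1a6a and 40.1% of that of Ugt1a9 in GENCODE vM21, from which these sequences were read. The own exon of Ugt1a9 lies at chr1:88070800-88071678, and its last 30 bases were found in no other Ugt1a member. Those of Ugt1a6a were the same as those of Ugt1a6b. Own here means ahead of the common exons in the transcript used, and not absent from all other annotated transcripts.

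The Ugt2b genes on chromosome 5 show the other kind of sharing, which is similarity along the whole coding sequence. The first 60 coding bases of 5 of them are given with each base that differs from Ugt2b37 in capitals.
Ugt2b37: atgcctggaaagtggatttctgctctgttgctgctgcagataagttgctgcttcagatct
Ugt2b38: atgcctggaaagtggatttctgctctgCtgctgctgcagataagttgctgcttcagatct
Ugt2b5: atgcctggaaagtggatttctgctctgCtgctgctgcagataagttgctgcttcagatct
Ugt2b36: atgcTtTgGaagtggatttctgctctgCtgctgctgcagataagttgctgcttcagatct
Ugt2b1: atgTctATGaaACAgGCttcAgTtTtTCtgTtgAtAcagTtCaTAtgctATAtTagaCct
Ugt2b38 and Ugt2b5 differed from Ugt2b37 at 1 of these bases, Ugt2b36 at 4 and Ugt2b1 at 26. Over the whole coding sequence Ugt2b38 and Ugt2b5 were 97.0% identical, Ugt2b37 and Ugt2b5 94.7%, and Ugt2b1 and Ugt2b5 72.5%. Ugt2b1, the member on which most of what follows turns, therefore has a sequence by which reads can be told from its neighbours, and no 50-base window of its transcript occurred in a transcript of another gene.

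The promoters of the 3 members that fell on the high-fat diets are shown because these genes moved together. They are the 250 bases before a RefSeq start (GRCm38.p6), with matches to the searched motifs in capitals. The window of Sult5a1 lies within the RefSeq extent of the gene, which reaches to chr8:123158914. Sequence ahead of that outer end was not searched.
Ugt2b1, chr5:86926504-86926753, minus strand: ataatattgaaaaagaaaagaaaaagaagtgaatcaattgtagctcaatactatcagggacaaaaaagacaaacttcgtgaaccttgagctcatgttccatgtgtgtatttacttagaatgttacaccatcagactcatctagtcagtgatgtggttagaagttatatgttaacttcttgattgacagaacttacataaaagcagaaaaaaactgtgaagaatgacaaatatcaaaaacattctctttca
Ugt1a9, chr1:88070529-88070778, plus strand: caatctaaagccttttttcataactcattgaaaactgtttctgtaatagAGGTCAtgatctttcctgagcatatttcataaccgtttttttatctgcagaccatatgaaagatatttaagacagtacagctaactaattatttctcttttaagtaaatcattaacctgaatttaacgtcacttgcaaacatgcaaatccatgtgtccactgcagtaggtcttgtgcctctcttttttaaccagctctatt
Sult5a1, chr8:123158281-123158530, minus strand: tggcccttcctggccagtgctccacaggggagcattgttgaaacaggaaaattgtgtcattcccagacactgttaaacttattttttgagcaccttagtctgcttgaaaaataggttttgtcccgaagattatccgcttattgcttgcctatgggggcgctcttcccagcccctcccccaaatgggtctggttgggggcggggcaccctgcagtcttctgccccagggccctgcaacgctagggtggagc
The motifs were searched on both strands in the 300 bases from 250 before to 50 after the start. They were the nuclear receptor half-site AGGTCA, its direct repeat with 1 base between (DR1), the STAT motif TTCNNNGAA, the antioxidant element TGACNNNGC, the E-box CACGTG and the palindromic HNF1 motif. The half-site is contained in the direct repeat. It was found once in Ugt1a9, 201 bases before the start, and in 7 of the 18 tested members that have a promoter entry, against 16.3% of 32851 promoters. The other 6 are Sult1b1, Ugt2b35, Ugt2b36, Ugt2b5, Ugt2b37 and Ugt2b38, of which the last 4 are similar sequences and not independent. The STAT motif, in 8.3% of promoters, was found in Ugt1a6a alone among the tested members. The direct repeat (0.0396% of promoters), antioxidant element (12.4%), E-box (7.15%) and HNF1 motif (0.00913%) had no match in these 18 windows, and none of the 6 motifs had a match in the windows of Ugt2b1 or Sult5a1.

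Reads on genes numbered 16994353 to 20509203 per library, and levels are given as CPM, the reads of a gene scaled to library size with TMM factors. A count of 0 allows up to 3 reads, which is 0.152 to 0.182 CPM in these libraries. This limit covers counting error only. The tissue label was checked against 6 hepatocyte markers, whose summed level was 83480 to 93320 CPM in ND, 101900 to 120000 in HFD and 104500 to 121500 in HFD_HDCA, so that ND was below both high-fat diets. Most of this sum was Alb, with means of 64710, 88120 and 84030 CPM in ND, HFD and HFD_HDCA, so the sum mainly reflects that gene. Cps1, a urea cycle enzyme, and Hnf4a went the other way. Cps1 had 3236 ± 371, 2291 ± 353 and 1500.0 ± 262 CPM (SD, n = 3) and fell in HFD_HDCA against ND (0.464-fold, adjusted p = 0.00620, edgeR). Hnf4a had means of 745.5, 600.8 and 534.7 CPM and fell in the same comparison (0.717-fold, adjusted p = 0.0431, edgeR). The part of these marker differences in the results was not tested. The summed macrophage markers (6 of 6 in the files) ranged from 259.6 to 309.8 CPM in ND, 89.6 to 577 in HFD and 236 to 429 in HFD_HDCA. Markers of pancreas, kidney and intestine stood at 5.17 CPM or less per list, with Umod and Cdx2 at 0 in all libraries. In these bulk samples, fewer cells of a type and less RNA per cell cannot be told apart. Libraries of the same group differed in some of these genes, among them but not only HFD_HDCA 1 and HFD 1. HFD_HDCA 1 had the acute phase gene Saa1 at 3369 CPM, against 23.4 and 38.0 in HFD_HDCA 2 and 3, and HFD 1 had 85.8 CPM of the clock gene Dbp, where HFD 2 had 2.27 and HFD 3 had 1.41.

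In the livers on ND, Ugt genes together took 5333 ± 205 CPM and Sult genes 431 ± 50.2 CPM (SD, n = 3). The Ugt2b genes made up most of the Ugt reads, with 4014 ± 205 CPM, followed by Ugt3a with 546.5 ± 7.43, Ugt1a with 409.9 ± 37.9 and Ugt2a with 361.6 ± 27.6 CPM. This order is one of reads and not of levels. The Ugt1a genes had few reads beside FPKM, a measure scaled by transcript length that is compared with CPM further below. Sult1a with 250.7 ± 32.0 CPM and Sult1d with 124.4 ± 12.2 CPM led the Sult genes. The corresponding sums were 3916 ± 378 CPM of Ugt and 485.2 ± 35.8 CPM of Sult in HFD, and 4219 ± 466 and 475.4 ± 93.5 CPM in HFD_HDCA. All 3 HFD libraries and all 3 HFD_HDCA libraries lay below all 3 ND libraries in summed Ugt reads, whereas the Sult sums overlapped between the diets. No test was made on sums.

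The Ugt2b subfamily, whose enzymes conjugate steroids and bile acids, had 7 of 7 members tested. FPKM is scaled by transcript length, but it is uncertain as a level for some genes, among them many that share sequence, as set out below. The highest means over the 9 libraries were those of Ugt2b5 (381 FPKM), Ugt2b36 (334), Ugt2b1 (194), Ugt3a2 (170) and Ugt2b34 (164). Of the 3 Ugt2a members, only Ugt2a3 had reads, at 128 FPKM. Ugt2a1 and Ugt2a2, known from the olfactory epithelium, had 0 reads in each of the 9 libraries, which allows up to 0.152 to 0.182 CPM. Of their 50-base windows 97.0 and 94.5% occurred in other genes.

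Among the Ugt1a genes, 5 of 8 were tested. Ugt1a1, the enzyme that conjugates bilirubin, had 123 FPKM, Ugt1a6b 122, Ugt1a6a 41.9, Ugt1a9 14.8 and Ugt1a5 12.2 FPKM. The other 3, Ugt1a2, Ugt1a7c and Ugt1a10, had reads but not enough for a test, with at most 0.809 CPM in any library. Both Ugt3a genes, whose enzymes use sugars other than glucuronic acid, were tested. Ugt8a, which makes galactosylceramide for myelin, had 0.0541 to 0.364 CPM and was not tested.

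The Sult family was read mainly from a few members. Sult1a1, the phenol sulfotransferase, had a mean of 159 FPKM (9 libraries), Sult1d1, which acts on amines, 40.8 and Sult1b1, which acts on thyroid hormones, 10.7 FPKM. Sult5a1, whose substrates are not well known, had 5.78 FPKM, Sult1c2 3.12 and Sult2a7 2.48 FPKM. These were the 6 tested members.

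Sulfotransferases that are known for high levels in female mouse liver were near 0. Sult2a1 had 0 to 0.0605 CPM, Sult2a2 0 to 0.12 CPM and Sult3a1 0 to 0.541 CPM over the 9 libraries. Sult1e1, the estrogen sulfotransferase, had 0 to 0.353 CPM. Sult2b1, Sult4a1 and Sult6b1 had 1 to 3 reads in all 9 libraries together, and Sult1c1, Sult2a3, Sult2a4, Sult2a5 and Sult2a6 had none. A gene now named Sult2a8, a bile acid sulfotransferase, stands in the files as 2810007J24Rik and so falls outside the naming rule. It had 1170 ± 31.8, 1020 ± 279 and 1495 ± 225 CPM in ND, HFD and HFD_HDCA (SD, n = 3), and a mean of 445 FPKM, above that of any member. It was not called in any comparison, with adjusted p of 0.760 for HFD against ND, 0.133 for HFD_HDCA against HFD and 0.263 for HFD_HDCA against ND (edgeR's quasi-likelihood test, Benjamini-Hochberg).

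**Figure D1:**
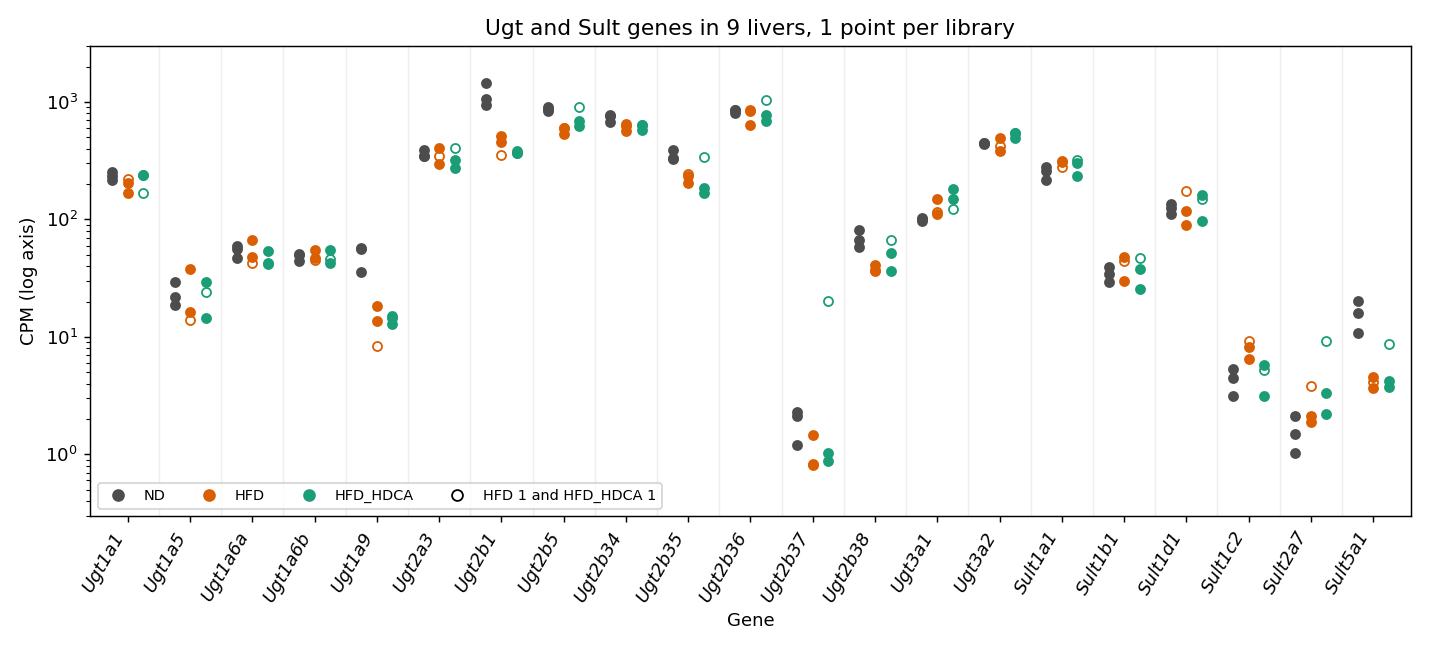
CPM (log axis) of the 21 tested Ugt and Sult genes, with 1 point for each of the 9 libraries, grouped by diet; open points are HFD 1 and HFD_HDCA 1. The ND points of Ugt2b1, Ugt1a9 and Sult5a1 lie above all points of both high-fat diets, and the open HFD_HDCA point of Ugt2b37 lies far above the other 8.

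The first comparison asks how the high-fat diet differed from the normal diet in these enzymes. Ugt2b1, Ugt1a9 and Sult5a1 fell, each to less than 0.4 of its ND level, and no member rose. That is 3 of 21 tested members lower and 0 higher, against 0.953% of all 12587 tested genes called in either direction and 0.477% called lower (edgeR, adjusted p under 0.05). The median log2 fold change was -0.05 over the 21 members and 0.02 over all tested genes.

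Ugt2b1 fell the most in absolute reads. It stood at 1058, 947 and 1440 CPM in the 3 ND livers, at 352, 511 and 459 CPM in the HFD livers and at 371, 367 and 383 CPM in the HFD_HDCA livers. Every ND liver had more than all 6 livers on the high-fat diets, and the HFD_HDCA livers lay close together. The log2 fold change of HFD against ND was -1.38 ± 0.18 (SE), or 0.384-fold, with an adjusted p of 0.00965 (edgeR, Benjamini-Hochberg). It remained called in 9 of 9 fits that left out a single library, with an adjusted p of 0.00829 to 0.0410. Ugt2b1 contributed 21.4 ± 4.0% of all Ugt reads in ND and 11.3 ± 2.0% in HFD (SD, n = 3). Without it the Ugt sum was 4184 ± 89.2 CPM in ND and 3476 ± 356 CPM in HFD.

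Ugt1a9, which conjugates phenols, stood at 56.5, 57.3 and 35.6 CPM in ND, 8.34, 13.7 and 18.2 CPM in HFD, and 14.5, 15.04 and 12.8 CPM in HFD_HDCA. The ND livers were all higher than the other 6. HFD against ND gave a log2 fold change of -1.89 ± 0.27, or 0.270-fold (adjusted p = 0.0164, edgeR). This call was lost without ND 1, ND 2 or HFD 2 (adjusted p = 0.0600, 0.0612 and 0.0647) and when only the 6 libraries of both groups were fitted (adjusted p = 0.0592), with log2 fold changes of -1.64 to -2.17 over the 9 fits without a library. The other 4 tested Ugt1a genes, whose messages end in the same exons, had log2 fold changes between -0.24 (Ugt1a1) and 0.02 (Ugt1a6b), none called.

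Sult5a1 stood at 20.1, 10.8 and 15.8 CPM in ND, 4.17, 4.59 and 3.65 CPM in HFD, and 8.72, 4.18 and 3.73 CPM in HFD_HDCA. Again no liver on a high-fat diet reached the lowest ND liver, and HFD_HDCA 1 was the nearest to it. HFD against ND gave -1.91 ± 0.33, or 0.266-fold (adjusted p = 0.0264, edgeR). The call held in 4 of 9 fits without a library and was lost without ND 1, ND 3 or any of the 3 HFD libraries, with an adjusted p of up to 0.109.

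The other Ugt2b genes had lower values in HFD without passing the test. All 7 Ugt2b genes had negative log2 fold changes, with a median of -0.62, against 5880 of 12587 tested genes with a negative sign. The 7 need not be independent, since Ugt2b38 and Ugt2b5 are 97.0% identical in coding sequence. The value of Ugt2b37 had a wide error (-0.84 ± 1.21). Ugt2b38 had -0.85 ± 0.20 (adjusted p = 0.0889), Ugt2b35 -0.62 ± 0.23 (0.330), Ugt2b5 -0.60 ± 0.15 (0.117) and Ugt2b34 -0.26 ± 0.12 (0.432, all edgeR). In these 4 genes, as in Ugt2b1, Ugt1a9 and Sult5a1, the 3 HFD libraries lay below the 3 ND libraries, which makes 7 of 21 members, against 9.19% of all tested genes. Ugt2b36, at 854, 859 and 798 CPM in ND 832, 861 and 634 CPM in HFD, and 1042, 694 and 770 CPM in HFD_HDCA, overlapped between the diets (HFD against ND -0.11 ± 0.17, adjusted p = 0.865).

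The number of members called lower depended on the libraries. It was 1 without ND 1 or without HFD 2, and 6 without HFD_HDCA 1, where Ugt2b5, Ugt2b35 and Ugt2b38 were added (adjusted p = 0.0199, 0.0249 and 0.0269, edgeR). HFD_HDCA 1 is in neither of the groups compared and entered this fit through the shared estimate of the spread. Without HFD 1 and HFD_HDCA 1 together the same 6 genes were called. The share of all genes called in these fits is not given here, so these changes in number cannot be set against it.

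No Sult gene other than Sult5a1 passed the test. Sult1c2 stood at 4.47, 5.36 and 3.12 CPM in ND and at 9.20, 6.51 and 8.28 CPM in HFD. The groups did not overlap, and the log2 fold change was 0.89 ± 0.26 (adjusted p = 0.196, edgeR). Sult1a1 (0.27 ± 0.15, adjusted p = 0.543) and Ugt3a1 (0.31 ± 0.16, adjusted p = 0.510) were the other members whose HFD libraries all lay above the ND libraries, 3 of 21 against 10.9% of all genes. Sult1a1 stood at 260.0, 215 and 277 CPM in ND, 281, 311 and 314 CPM in HFD, and 321, 236 and 303 CPM in HFD_HDCA, where HFD_HDCA 2 lay between ND livers. Sult1d1 stood at 124, 112 and 137 CPM in ND, 176, 118 and 89.3 CPM in HFD, and 150, 97.8 and 162 CPM in HFD_HDCA. Its HFD livers held both the highest and the lowest value, and its log2 fold change was 0.04 ± 0.25 (adjusted p = 0.971). Sult1b1 also overlapped, with 39.5, 29.4 and 34.2 CPM in ND, 44.6, 47.7 and 29.9 CPM in HFD, and 47.0, 25.4 and 37.6 CPM in HFD_HDCA (HFD against ND 0.24 ± 0.23, adjusted p = 0.761).

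The main Ugt1a and Ugt2a genes overlapped between all diets. Ugt1a1 stood at 233, 254 and 215 CPM in ND, 220, 204 and 169 CPM in HFD, and 168, 239 and 240.5 CPM in HFD_HDCA (HFD against ND -0.24 ± 0.16, adjusted p = 0.635, edgeR). The lowest values were those of HFD 3 and HFD_HDCA 1. Ugt2a3 stood at 344, 348 and 393 CPM in ND, 348, 407 and 294 CPM in HFD, and 403, 276 and 322 CPM in HFD_HDCA (HFD against ND -0.05 ± 0.17, adjusted p = 0.947), with each diet spread over much the same range. A p that misses the threshold does not show that these genes stayed the same.

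**Figure D2:**
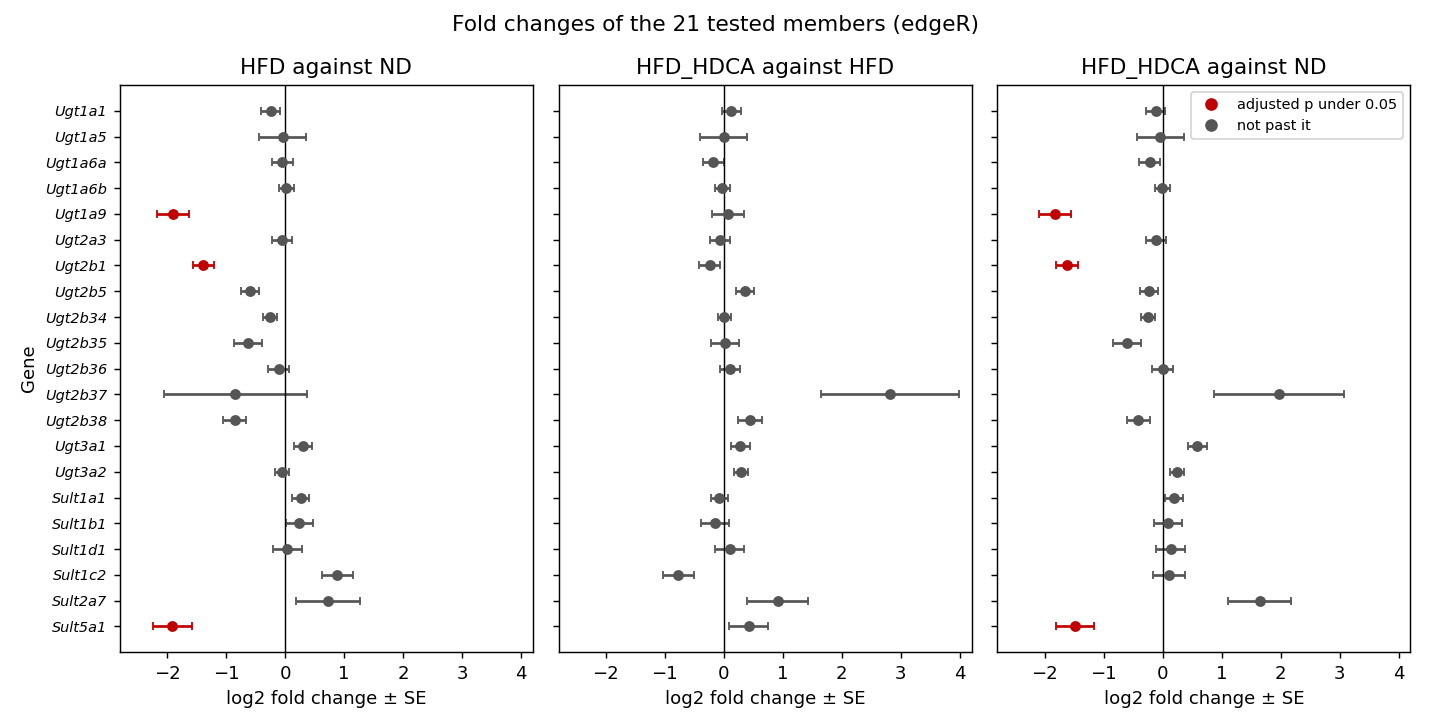
Log2 fold change ± SE of the 21 tested members in each comparison (edgeR), with genes past an adjusted p of 0.05 in red. Ugt1a9, Ugt2b1 and Sult5a1 are red against ND on both high-fat diets, no gene is red in HFD_HDCA against HFD, and Ugt2b37 has the widest error.

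Genes that differ between the sexes in mouse liver also moved with the diet and are given beside these results. Of 7 such genes, 6 were tested. Cyp2b9, a cytochrome P450 with high levels in females, had 0.457 CPM in ND, 201 in HFD and 98.9 in HFD_HDCA, and rose in HFD against ND (adjusted p = 0.00314, edgeR). Hsd3b5, a steroid dehydrogenase with high levels in males, had 288, 76.0 and 113 CPM and fell (adjusted p = 0.00446). Cyp2b13 rose and Cyp7b1 fell in the same comparison. Cyp4a12a (0.245-fold, adjusted p = 0.0815) and Elovl3 (0.558-fold, adjusted p = 0.684, both edgeR) were not called. In HFD_HDCA against ND, Cyp2b9 rose (adjusted p = 0.00146), and Hsd3b5 (0.00808) and Cyp4a12a (0.0254, all edgeR) fell. Cyp2b13, Cyp7b1 and Elovl3 were not called against ND there. In HFD_HDCA against HFD, Cyp2b13 fell (0.0468-fold, adjusted p = 0.00926, edgeR) and Cyp7b1 rose (3.155-fold, adjusted p = 0.0290, edgeR). The other tested genes of this list were not called there, nor were Ugt2b1, Ugt1a9 and Sult5a1. The part of the shift in these sex-biased genes in the fall of Ugt2b1, Ugt1a9 and Sult5a1 was not tested.

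The second comparison asks what HDCA changed on the high-fat diet. No member passed the test in either direction, 0 of 21 against 3.4% of all tested genes (1.67% higher and 1.73% lower). By edgeR an unadjusted p under 0.05 was reached by 3 members that were higher and 1 that was lower, or 4 of 21, near the 2766 of 12587 genes (1461 higher and 1305 lower) over all. DESeq2 gave 0 calls. The 4 were Ugt2b5 (0.36 ± 0.15, adjusted p = 0.190), Ugt3a2 (0.29 ± 0.12, 0.196), Ugt2b37 (2.82 ± 1.16, 0.208) and Sult1c2 (-0.77 ± 0.26, 0.130). The median log2 fold change of the 21 members was 0.07.

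Ugt2b5, the Ugt gene with the most FPKM, stood at 871, 911 and 839 CPM in ND, 595.5, 600.2 and 539 CPM in HFD, and 911, 692 and 624 CPM in HFD_HDCA. The HFD_HDCA livers were all above the HFD livers, and HFD_HDCA 1 was level with ND. Ugt3a2 stood at 441, 450 and 447 CPM in ND, 419, 491 and 383 in HFD, and 542, 497 and 543 CPM in HFD_HDCA, so that the HFD_HDCA livers were the highest. Sult1c2 had 5.21, 3.14 and 5.71 CPM in HFD_HDCA, all below the HFD livers and overlapping with ND. Members whose libraries did not overlap were thus Ugt2b5 and Ugt3a2 above, 2 of 21 against 11.3% of all genes, and Sult1c2 below, 1 of 21 against 11.1%.

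The 3 genes that fell on HFD had log2 fold changes of -0.24 ± 0.18 (Ugt2b1, adjusted p = 0.469), 0.07 ± 0.27 (Ugt1a9, 0.902) and 0.42 ± 0.34 (Sult5a1, 0.495) with HDCA against HFD (edgeR). The value of Sult5a1 rested on HFD_HDCA 1 and was -0.05 without it.

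In the third comparison, of HFD_HDCA against ND, Ugt2b1, Ugt1a9 and Sult5a1 fell and no member rose. This is 3 of 21 members, against 6.47% of all tested genes called in either direction and 2.82% called lower. The comparison shares the ND libraries with HFD against ND, so the lower level of these genes in both is not independent evidence. Ugt2b1 had -1.62 ± 0.18 (0.325-fold, adjusted p = 0.00171), Ugt1a9 -1.82 ± 0.27 (0.283-fold, adjusted p = 0.00662) and Sult5a1 -1.49 ± 0.32 (0.355-fold, adjusted p = 0.0264, all edgeR). Ugt2b1 and Ugt1a9 were called in 9 of 9 fits without a library. Sult5a1 was called in 5 of 9 and lost its call without ND 1, ND 3, HFD_HDCA 2 or HFD_HDCA 3 (adjusted p of 0.0603 to 0.112).

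Ugt3a1 came next. It stood at 97.5, 103 and 102 CPM in ND, 116, 148 and 111 in HFD, and 123, 150 and 182 CPM in HFD_HDCA. All livers on a high-fat diet were above those on ND, and the 3 HFD_HDCA values spread widely. The log2 fold change of HFD_HDCA against ND was 0.59 ± 0.16 with an adjusted p of 0.0530 (edgeR), which was 0.0175 without HFD_HDCA 1 and 0.0127 by DESeq2. Of the 21 members, Ugt3a1, Ugt3a2 and Sult2a7 had all HFD_HDCA libraries above ND, against 17.8% of all genes. Ugt2b1, Ugt1a9, Sult5a1 and Ugt2b34 had them all below, against 16.1%.

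The library HFD_HDCA 1, which had the acute phase signal, also stood apart in some members. Ugt2b37 had 20.2 CPM there against 0.871 and 1.02 in HFD_HDCA 2 and 3, and 0.812 to 2.31 CPM in the 6 livers of the other diets. In FPKM the same gene had 25.3 against 14.5 and 12.3, a much smaller difference. Sult2a7 had 9.14 CPM against 2.21 and 3.31, Sult5a1 8.72 against 4.18 and 3.73, and Ugt2b35 340 against 186 and 167 CPM. In contrast Ugt2b1, with 371 against 367 and 383 CPM, and Ugt1a9, with 14.5 against 15.04 and 12.8 CPM, were alike in all 3 HFD_HDCA livers. Of the 21 members 10 were above both other HFD_HDCA libraries in HFD_HDCA 1, or 47.6%, near the 39.5% of all tested genes, and 5 of these were among the 7 Ugt2b genes. Ugt1a1 and Ugt3a1 were below both, at 0.699 and 0.743 of the mean of the other two, which is 2 of 21 members or 9.52%, against 40.3% of all tested genes. The 3 acute phase genes (Saa1, Saa2 and Lcn2) summed to 5781 CPM in this library and to at most 134.9 CPM in HFD and 46.3 in ND. The part of the acute phase signal in these values was not tested.

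In the genome 13 members, from Ugt2b34 to Sult1e1, lie together in 702 kb of chromosome 5 (86889770 to 87591611, GRCm38.p6). The order is Ugt2b34, Ugt2b1, Ugt2b35, Ugt2b36, Ugt2b5, Ugt2b37, Ugt2a3, Ugt2b38, Ugt2a1, Ugt2a2, Sult1b1, Sult1d1 and Sult1e1. Ugt2b1, which fell to 0.384 of its ND level on HFD, lies next to Ugt2b34, which had a log2 fold change of -0.26, and its own lower coordinate is 26.9 kb from that of Ugt2b34. Ugt2a3, between Ugt2b37 and Ugt2b38, had -0.05 ± 0.17, and the Sult1 genes at the end of the cluster had 0.24 and 0.04. Ugt2b36, with -0.11, lies between Ugt2b35 and Ugt2b5, with -0.62 and -0.60. Within the cluster the values thus differed between direct neighbours. Ugt1a9 lies on chromosome 1 and Sult5a1 on chromosome 8.

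**Figure D3:**
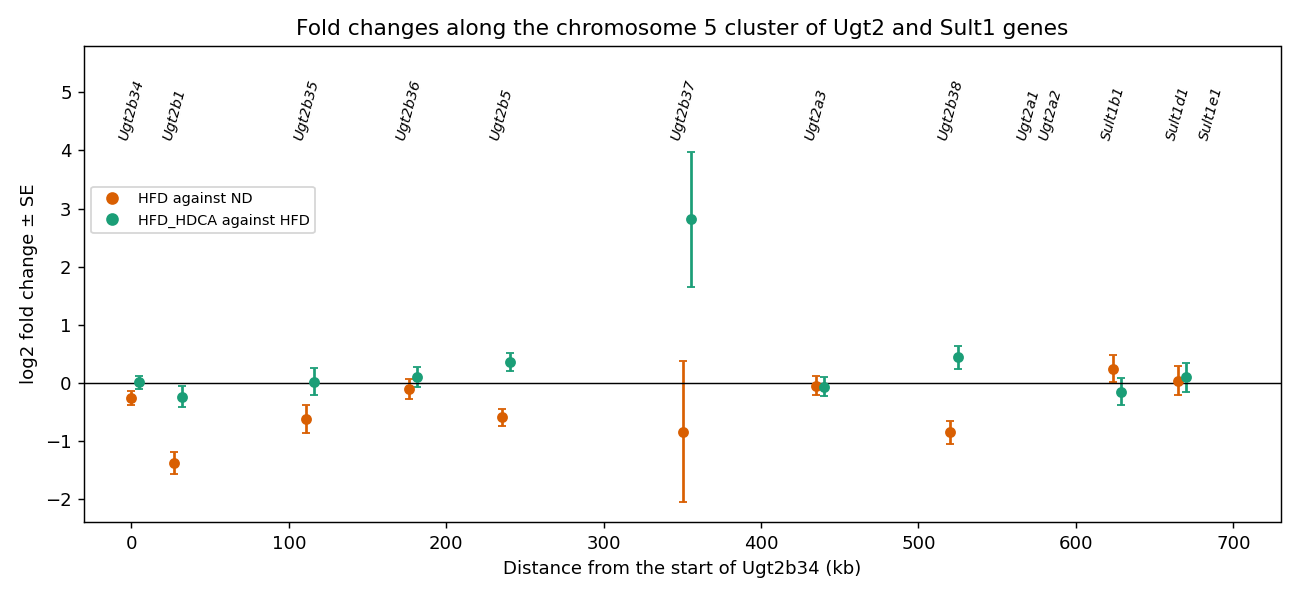
Log2 fold change ± SE (edgeR) of the tested genes of the chromosome 5 cluster against the distance of each gene's lower coordinate from that of Ugt2b34, with HFD_HDCA against HFD drawn 5 kb to the right for legibility; Ugt2a1, Ugt2a2 and Sult1e1 were not tested and carry a name only. Ugt2b1 at 26.9 kb is the lowest HFD point, at -1.38, between neighbours at -0.26 and -0.62.

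For some members, near-identical copies and others, the counts were low beside the deposited FPKM. HTSeq counts were set against Cufflinks FPKM as CPM per FPKM and per kb of transcript, in percent of the median over 8298 genes, whose quartiles were 85.9 and 105.6%. Ugt2b1 (103%), Ugt2b34 (103%), Ugt2b36 (102%), Ugt2b35 (102%) and Ugt2a3 (101%) were close to the median, and at most 4.5% of the 50-base windows of their transcripts occurred in another gene. Ugt2b37, at 8.9%, Ugt1a6b, at 13.6%, and Ugt2b38, at 26.5%, were far under it. These 3 shared 18.3, 80.7 and 37.4% of their windows with other genes, so that the share alone did not order them. Ugt1a1, Ugt1a5 and Ugt1a9 had 61.8, 67.1 and 62.6%, with 58.2, 64.0 and 62.0% of windows shared. Ugt1a6a had 41.6% with all its windows shared, and Ugt2b5 81.3% with 41.7% shared. All windows of Ugt1a6a, those of its own exons included, occurred in transcripts annotated as Ugt1a7c, as did 80.7% of those of Ugt1a6b. For these genes the share therefore depends on how transcripts were annotated. Low values were not limited to genes that share much sequence: Sult5a1 had 30.1% with 1.4% of windows shared, Ugt3a1 65.3% with 9.4% and Sult1c2 77.5% with 0.7%. The transcript used for Sult5a1 had 3805 bases, and the value depends on that length. The other 4 Sult genes had 100.7 to 106.6%. CPM and FPKM thus disagreed for Ugt2b37, Ugt2b38, Ugt2b5, Ugt3a1, Sult1c2, Sult5a1 and the Ugt1a genes. Neither measure is certain as a level of these genes. Ugt1a6a and Ugt1a6b, for example, had means of 53.98 and 48.34 CPM in ND but of 43.65 and 126.4 FPKM. Sums and shares of CPM that include these genes carry the same uncertainty. The cause of the low counts was not tested.

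**Figure D4:**
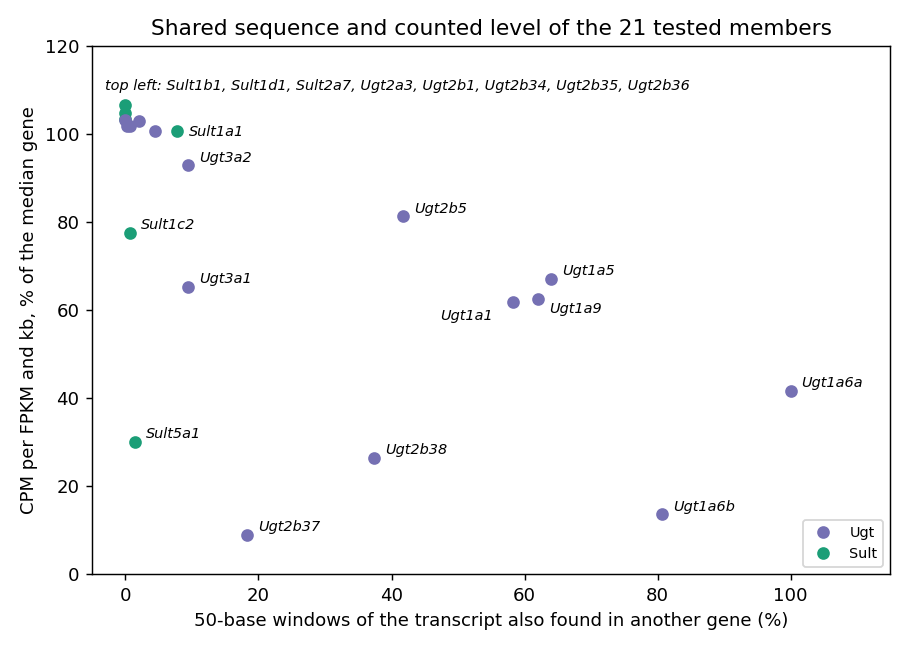
For the 21 tested members (Ugt and Sult in separate colours), CPM per FPKM and kb in percent of the median gene against the percent of 50-base windows of the transcript that also occur in another gene. Ugt2b1 and the 7 other genes named at the top left are close to the median gene, and Ugt2b37 (8.9%), Ugt1a6b (13.6%), Ugt2b38 (26.5%) and Sult5a1 (30.1%, at the lower left) are the lowest.

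The fall of the 3 genes was also present in FPKM. With limma on log2(FPKM + 0.1), a scale that understates changes of low genes, HFD against ND gave -1.26 ± 0.16 for Ugt2b1 (adjusted p = 0.00891), -1.87 ± 0.28 for Ugt1a9 (0.0182) and -1.74 ± 0.28 for Sult5a1 (0.0247). Ugt2b1 had 334 ± 66.7 FPKM in ND, 139 ± 21.9 in HFD and 109 ± 4.78 in HFD_HDCA (SD, n = 3). Its place among the Ugt genes of ND was thus near that of Ugt2b36 (336 ± 21.2 FPKM), whereas in HFD_HDCA Ugt2b36 had 331 ± 59.4 FPKM.

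Genes that supply, transport or control conjugation were taken from a list of 46, of which 45 were in the files and 44 were tested. In HFD against ND none of the 44 was called (edgeR), against 0.953% of all tested genes. An unadjusted p under 0.05 was reached by 9 higher and 5 lower genes, or 20.5 and 11.4%, against 6.67 and 4.83% of all tested genes. DESeq2 called 3 higher and 1 lower. For DESeq2 and for the fits without a library, the share over all genes is not given here. The median log2 fold change of the 44 was 0.07. In HFD_HDCA against HFD 2 were lower and 0 higher, against 1.73 and 1.67% of all tested genes. In HFD_HDCA against ND 2 were higher and 4 lower, against 3.65 and 2.82%. The number lower in HFD_HDCA against HFD was 4 without HFD_HDCA 1 and 1 without HFD_HDCA 3. In HFD_HDCA against ND the number higher was 0 without ND 1 or ND 2 and 1 without HFD_HDCA 3, and the number lower was 1 without ND 1 and 2 without ND 2, ND 3 or HFD_HDCA 3. By unadjusted p under 0.05 (edgeR), 13 were lower and 4 higher in HFD_HDCA against HFD. These are 29.5 and 9.09%, against 10.4 and 11.6% of all tested genes. In HFD_HDCA against ND 13 were lower and 6 higher, or 29.5 and 13.6%, against 11.4 and 14.8%. The median log2 fold changes were -0.22 and -0.11.

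Ugdh, which makes UDP-glucuronic acid, the sugar donor of most Ugt enzymes, had 258, 264 and 214 CPM in ND, 151, 192 and 152 in HFD, and 156, 126 and 113 CPM in HFD_HDCA. All 6 livers on a high-fat diet were below ND, and Ugdh fell in HFD_HDCA against ND (-0.90 ± 0.16, adjusted p = 0.0107, and 0.0548 without ND 1, edgeR). In HFD against ND it had -0.57 ± 0.16 and was not called (adjusted p = 0.154).

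Of the 9 tested genes for sulfate and PAPS supply, Papss2 and Slc26a1 were called. Papss2, a PAPS synthase, had means of 223 ± 17.9, 187 ± 17.6 and 139 ± 28.6 CPM in ND, HFD and HFD_HDCA (SD, n = 3) and fell in HFD_HDCA against ND (-0.68 ± 0.15, adjusted p = 0.0280, edgeR). Slc26a1, a sulfate transporter, had 134 ± 6.32, 182 ± 29.4 and 108 ± 10.1 CPM and fell in HFD_HDCA against HFD (-0.76 ± 0.13, adjusted p = 0.0153). Papss2 was called in 4 of 9 fits without a library and lost its call without ND 1, ND 2, ND 3, HFD_HDCA 2 or HFD_HDCA 3 (adjusted p of 0.0573 to 0.125, edgeR). Slc26a1 lost its call without HFD_HDCA 3 (0.0689). None of the 10 transporters of conjugates, the 2 carriers of nucleotide sugars or the 3 enzymes that reverse conjugation was called.

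Among the 14 receptors and factors, Nr1i3, which encodes the xenobiotic receptor CAR, had 134 ± 11.7, 193 ± 52.6 and 271 ± 32.6 CPM and rose in HFD_HDCA against ND (1.02 ± 0.19, adjusted p = 0.0149, edgeR). Nr1h4, which encodes the bile acid receptor FXR, had 103 ± 14.8, 134 ± 21.5 and 168 ± 12.6 CPM and rose in the same comparison (0.71 ± 0.15, adjusted p = 0.0202). Hnf4a, a hepatocyte factor that is also in the hepatocyte marker list, fell (-0.48 ± 0.12, adjusted p = 0.0431). In the 9 fits without a library, Nr1i3 and Nr1h4 were each called in 6 and lost their calls without ND 1, ND 2 or HFD_HDCA 3 (adjusted p of 0.0605 to 0.0794 and of 0.0566 to 0.103, edgeR). Hnf4a was called in 2 of 9, those without HFD 1 or HFD_HDCA 2. The other 11 were not called in any comparison.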

How the data were processed

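Liver RNA libraries of 9 mice were analysed, 3 per diet, with groups and replicate numbers from the sample titles. Per the labels, the authors deposited HTSeq counts per gene, which are whole and were read as raw; the meaning of "antisense" in their names, the strand setting and the HTSeq version are not given in the sources used here. Per the file headers, the authors also deposited Cufflinks FPKM. TopHat 1.3.2, Cufflinks 2.0.2 and the build mm10 are listed in the submitters' processing notes. Classes of reads on no gene were left out; reads on genes were 63.9 to 72.1% of each file and reads aligned to several places 13.3 to 19.4%.

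Counts were tested with edgeR 4.0.16 (R 4.3.3): filterByExpr with a minimum count of 10 (12587 genes kept), TMM, 1 model over all 9 libraries, quasi-likelihood F test, two-sided, Benjamini-Hochberg over all genes tested, and a call at an adjusted p under 0.05. For 3 libraries against 3, the smallest p of an exact permutation test is 0.1. Alternatives used DESeq2 1.42.0 and limma 3.58.1 on FPKM with pseudocounts of 0.1 and 1. The scripts were tested on simulated data. Values in every library are given for members that were called, the 3 per family with most FPKM and some fixed members; up to 6 other conjugation genes were named by smallest p, and some genes taken by these rules are not reported here. Members, lists and motifs were chosen with earlier results of these data known. Sequences are from GENCODE vM21 and RefSeq (GRCm38.p6); 33 of 39 members had a promoter entry. Identity came from global alignment of coding sequences in Biopython 1.88.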

Additional observations from a re-analysis of the deposited data

How the results depend on the processing

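Calls for the Ugt and Sult genes in HFD_HDCA against HFD stayed at 0 in both directions under every alternative run. In HFD against ND the number lower was 5 by DESeq2 and with only the 2 groups compared, and 6 without HFD 1 and HFD_HDCA 1 together. In HFD_HDCA against ND the number lower was 5 without that pair of libraries, and the number higher was 2 by DESeq2 (Sult2a7 and Ugt3a1) and 1 each with FPKM and a pseudocount of 0.1, with the replicate block, with the 2 groups alone and without that pair. Leaving out single libraries gave 1 to 6 lower in HFD against ND, and 2 to 4 lower and 0 to 1 higher in HFD_HDCA against ND. The share of all genes called under these alternatives is not given here.

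Among the other conjugation genes, DESeq2 called 3 higher and 1 lower in HFD against ND, 1 higher and 7 lower in HFD_HDCA against HFD, and 6 higher and 10 lower in HFD_HDCA against ND. Without HFD 1 and HFD_HDCA 1 together there were 2 higher in HFD against ND, and 2 higher and 5 lower in HFD_HDCA against HFD. With the replicate block 1 was higher in HFD against ND. Single libraries left out gave 0 to 1 higher in HFD against ND, 0 to 1 higher and 1 to 4 lower in HFD_HDCA against HFD, and 0 to 3 higher and 1 to 5 lower in HFD_HDCA against ND. The share of all genes called in each of these fits is not given here, so the counts do not show a shift particular to this list. In every case the cause was not tested.

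The labels name nothing shared by libraries of the same replicate number. Correlations of the deviations ran from -0.149 to 0.153 for same-numbered libraries and from -0.146 to 0.13 for the others. The clock genes did go with the number in part. Library 1 of ND, HFD and HFD_HDCA had the most Dbp of its group (14.6, 85.8 and 10.5 CPM) and the least Arntl (17.3, 4.71 and 25.3 CPM). Nr1d1 was highest in ND 1 and HFD 1 but not in HFD_HDCA 1. Whether the numbers mark something shared was not tested. With the number as a replicate block, 2 members were lower in HFD against ND, and 1 was higher and 3 lower in HFD_HDCA against ND. Ugt1a9 in HFD against ND had an adjusted p of 0.0545 under the block (edgeR).

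Of 561 log2 fold changes of 11 members under 17 alternatives, 14 lost a call and 5, all of Ugt2b5, gained one. A further 39 changed sign, none of them called in either fit. With FPKM these were Sult1d1 in HFD_HDCA against HFD (-0.00567 with a pseudocount of 0.1 and -0.00611 with 1), Ugt2b36 in the same comparison (-0.0202 and -0.0201), Ugt2a3 in HFD against ND (0.0485 and 0.0483) and Ugt3a2 there (0.0539 and 0.0536). Without HFD 1 and HFD_HDCA 1 together they were Sult1d1 in HFD against ND (-0.28), Sult5a1 (-0.0369), Ugt1a9 (-0.18) and Ugt2b36 (-0.00754) in HFD_HDCA against HFD, and Sult1b1 (-0.13) and Ugt1a1 (0.0352) in HFD_HDCA against ND. Over the fits without a single library, values in HFD against ND ranged from -0.26 to 0.24 for Sult1d1, -0.17 to 0.061 for Ugt2a3, -0.19 to 0.0154 for Ugt2b36 and -0.15 to 0.0303 for Ugt3a2. In HFD_HDCA against HFD they ranged from -0.15 to 0.070 for Sult1a1, -0.35 to 0.0789 for Sult1b1, -0.10 to 0.40 for Sult1d1, -0.05 to 0.64 for Sult5a1, -0.18 to 0.35 for Ugt1a9, -0.21 to 0.0758 for Ugt2a3 and -0.0693 to 0.25 for Ugt2b36. In HFD_HDCA against ND they ranged from -0.13 to 0.30 for Sult1b1, -0.00775 to 0.33 for Sult1d1, -0.20 to 0.0348 for Ugt1a1, -0.28 to 0.00896 for Ugt2a3 and -0.20 to 0.12 for Ugt2b36.

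No test was made for 18 members: 11 had reads but fewer than the filter asks and 7 had none. Some of them share much of their sequence (97.0% of windows in Ugt2a1, 63.7% in Ugt1a2 and 62.1% in Sult2a2), and the cause of their low counts was not tested.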
